A study of Mus musculus with 2 samples.

Results

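The H3K27ac peaks around Nkx2-5, Mef2c, Hand1 and Hand2, genes of transcription factors of the developing heart, were compared between the atrioventricular canal (AVC) and the heart chambers of mouse embryos at E10.5. A peak was taken when its midpoint lay in a fixed window of the mm9 genome: chr17:26900001-27050000 for Nkx2-5, chr13:83550001-83900000 for Mef2c, chr11:57570001-57720000 for Hand1 and chr8:59650001-59900000 for Hand2. These windows held 212 of the 154664 peaks of the series, 91 of the 87572 AVC peaks and 121 of the 67092 chamber peaks. The AVC library came from sorted EGFP-positive cells and the chamber library from sorted Katushka-positive cells, EGFP being a green and Katushka a far-red fluorescent protein. Both samples carried the strain background FVB/N and the genotype Katushka+ EGFP+. The sources used here do not give the promoters of the reporters or the number of embryos pooled. Each tissue had 1 library, so no difference between tissues has a replicate check and none was tested; intervals cover counting error only.

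H3K27ac, a histone acetylation, marks enhancers and promoters in use, and clusters of it often surround genes that define a tissue. Nkx2-5 is a homeodomain factor of the early heart muscle that acts together with GATA and T-box factors. Mef2c is a MADS-box factor that activates muscle genes and is needed for heart looping and growth of the right ventricle. Hand1 and Hand2 are basic helix-loop-helix factors; in the mouse heart Hand1 is known mainly from the left ventricle and outflow tract, and Hand2 from the right ventricle, outflow tract and cushion-forming regions. The AVC separates atria from ventricles, conducts slowly and forms the valve cushions, whereas the chambers form the working muscle. In the order of genes in the RefSeq annotation of GRCm38.p6, Nkx2-5 lies between the coding genes Bnip1 and Kifc5b, Mef2c between Cetn3 and Tmem161b, Hand1 between Sap30l and Larp1, and Hand2 between Fbxo8 and Scrg1, with the noncoding gene Hand2os1 next to it. No mm9 annotation or genome was used here, so peaks were placed in the windows and not at promoters, exons or introns, and the 2 tissue labels could not be set against marker genes.

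The sequences before the annotated transcription starts of these genes are shown as the reference sequence at the genes the windows are named for; whether the mm9 windows hold these starts was not checked here. They come from RefSeq on build GRCm38.p6, whose positions cannot be set beside the mm9 peak positions, and 3 of the 4 symbols matched, Nkx2-5 and Hand2 with 1 start each and Mef2c with 3; Hand1 had none. Each run is the 250 bases before a start, 5′ to 3′ on the gene's strand. The Nkx2-5 run is chr17:26841566-26841815 on the minus strand and the Hand2 run is chr8:57320733-57320982 on the plus strand. The Mef2c runs are chr13:83503784-83504033, chr13:83523406-83523655 and chr13:83573357-83573606 on the plus strand. Capitals mark matches on either strand to 3 motifs. These are CANNTG, the E-box bound by basic helix-loop-helix factors, then AAGTG, the core of NK2 homeodomain sites, and last TATAAA, an element of some core promoters.
Nkx2-5: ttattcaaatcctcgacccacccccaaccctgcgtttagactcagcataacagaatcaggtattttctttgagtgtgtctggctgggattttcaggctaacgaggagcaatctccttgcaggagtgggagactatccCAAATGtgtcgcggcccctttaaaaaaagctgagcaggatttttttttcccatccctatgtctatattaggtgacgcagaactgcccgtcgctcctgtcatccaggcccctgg
Hand2: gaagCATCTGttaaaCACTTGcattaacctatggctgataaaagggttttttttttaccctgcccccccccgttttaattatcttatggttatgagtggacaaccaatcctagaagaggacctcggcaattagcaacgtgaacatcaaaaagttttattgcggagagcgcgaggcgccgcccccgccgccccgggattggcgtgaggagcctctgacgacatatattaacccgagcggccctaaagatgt
Mef2c start 1: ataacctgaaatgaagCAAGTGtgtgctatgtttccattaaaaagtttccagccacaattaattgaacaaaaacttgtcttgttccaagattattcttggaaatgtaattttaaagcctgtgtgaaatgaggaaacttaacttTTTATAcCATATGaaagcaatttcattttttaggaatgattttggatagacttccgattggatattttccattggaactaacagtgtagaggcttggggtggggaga
Mef2c start 2: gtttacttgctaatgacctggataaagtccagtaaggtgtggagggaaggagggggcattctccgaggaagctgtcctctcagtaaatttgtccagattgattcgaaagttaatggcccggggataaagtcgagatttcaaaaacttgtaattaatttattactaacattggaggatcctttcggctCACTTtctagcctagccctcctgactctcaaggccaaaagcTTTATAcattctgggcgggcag
Mef2c start 3: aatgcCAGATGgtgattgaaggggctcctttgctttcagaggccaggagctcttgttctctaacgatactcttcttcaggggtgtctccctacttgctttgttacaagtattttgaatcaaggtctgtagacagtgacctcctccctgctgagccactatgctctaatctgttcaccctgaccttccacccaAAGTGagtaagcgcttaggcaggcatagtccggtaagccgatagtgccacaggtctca
The Nkx2-5 run held 1 E-box match, 113 bases before the start, and no AAGTG or TATAAA. The Hand2 run held 2 E-box matches, 246 and 235 bases before the start; the one at 235 also contains the AAGTG match on the other strand. Mef2c start 1 held 2 E-box matches, the one 234 bases before the start overlapping its AAGTG match, and 1 TATAAA match. Start 2 held no E-box match but 1 AAGTG and 1 TATAAA match, and start 3 held 1 E-box and 1 AAGTG match. The TATAAA matches of starts 1 and 2, which read TTTATA here, and the AAGTG match of start 2 lie on the other strand. Neither GATAAG nor GGTGTGA, spellings of GATA and T-box sites, occurred in any of the 5 runs. Of 32851 such runs in the RefSeq table, 66.2% held CANNTG, 40.7% AAGTG, 12.4% TATAAA, 6.55% GATAAG and 3.33% GGTGTGA. Matches to CANNTG and AAGTG are thus common everywhere, and those to TATAAA less so.

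Peaks in the Nkx2-5, Mef2c and Hand2 windows were denser than over their chromosomes in both tissues, whereas the Hand1 window held too few peaks for such a comparison. The Nkx2-5 window held 18 AVC and 31 chamber peaks, the Mef2c window 39 and 42, the Hand2 window 32 and 40, and the Hand1 window 2 and 8. Per 100 kb this came to between 11.1 and 12.8 AVC peaks in the first 3 windows, against 3.44 to 3.92 over their chromosomes up to the last peak. For the chambers it was 20.7 at Nkx2-5, 12 at Mef2c and 16 at Hand2, against 2.52 to 3.12 over the chromosomes. The Hand1 window had 1.33 AVC peaks per 100 kb, fewer than the 3.68 of chromosome 11, and 5.33 chamber peaks per 100 kb, against 3.57. These Hand1 rates rest on 2 and 8 peaks and were given no interval, so they do not set the tissues apart.

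**Figure D1:**
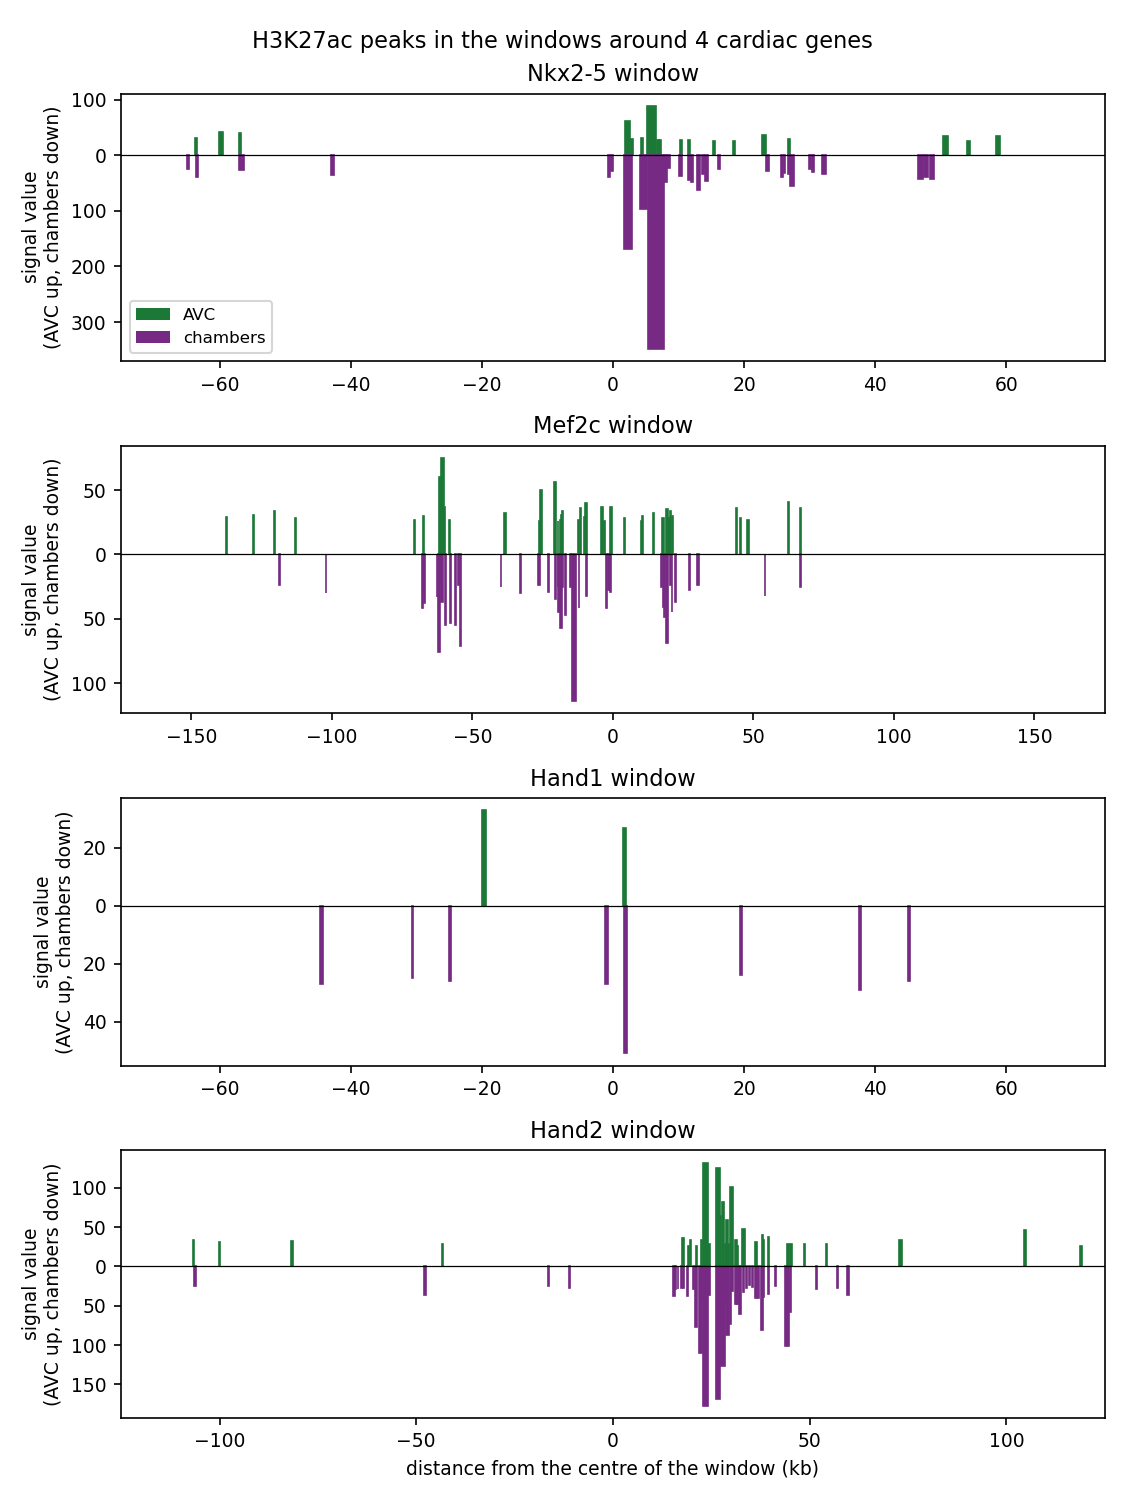
Signal values of all 212 peaks against the distance from the centre of each window in kb; AVC peaks point up in green and chamber peaks down in purple, each bar as wide as its peak. The highest bars are chamber peaks in all 4 windows, up to 348 at Nkx2-5, and the Hand1 window holds 10 bars.

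The AVC list was the longer one, yet in each window it supplied fewer peaks than the chamber list when all peaks were counted. Among peaks at least 300 bp wide this turned at Mef2c, with 36 AVC peaks of 63 (57.1%), and at Hand2, with 31 of 59 (52.5%), against 66.9% of both lists at that width. With the Mef2c window extended by 50 kb on each side the tissues had 42 peaks each. AVC peaks made up 42.9% of the 212 peaks (95% interval 36.2 to 49.9), against 56.6% of both whole lists. The share was 36.7% at Nkx2-5 (23.4 to 51.7), 48.1% at Mef2c (36.9 to 59.5), 20% at Hand1 (2.52 to 55.6) and 44.4% at Hand2 (32.7 to 56.6). The intervals at Mef2c and Hand2 included the share of the whole lists, at Hand2 at its upper bound. On the windows' own chromosomes the AVC share was 55.7% for Nkx2-5, 59.2% for Mef2c, 50.8% for Hand1 and 57.8% for Hand2; those of Mef2c and Hand1 lay inside the window's interval and those of Nkx2-5 and Hand2 above it. Neighbouring peaks are not independent, since the peak caller often split a broad region into several peaks, so these intervals are too narrow. With peaks of a list less than 100 bp apart joined into 1, the share at Nkx2-5 was 41.5% with an interval of 26.3 to 57.9, which included the 57.4% of the joined lists.

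Strong peaks, those with a score of 5 or more, were chamber peaks more often than AVC peaks. Strength is given by the peak caller's score, a log enrichment ratio of unstated base set within each chromosome. It is also given by a whole-number signal value that the files do not name. Neither was scaled between the lists, so a score of 5 need not be the same bar in both. On chromosome 17 a signal value of 42 scored 5.01 in the chambers and 4.22 in the AVC. A score of 5 or more was reached by 12 of the 91 AVC peaks (13.2%, 7.0 to 21.9), against 9.95% of the whole AVC list, and by 37 of the 121 chamber peaks (30.6%, 22.5 to 39.6), against 18.1% of the whole chamber list. Of the 49 peaks this strong, AVC peaks made up 24.5% (13.3 to 38.9), against 41.8% over both lists. By window they numbered 2 AVC and 11 chamber peaks at Nkx2-5, 4 and 12 at Mef2c, none and 1 at Hand1, and 6 and 13 at Hand2. The weakest peaks had similar signal values in both lists, 25 to 27 in the AVC and 23 to 24 in the chambers.

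The largest shared shares were those of Hand2, but their intervals overlapped those of Mef2c and Nkx2-5 in both lists. Among AVC peaks the order of Hand2 and Nkx2-5 turned with equal peak numbers (71.4% and 73.3%) and with at least 50% of a peak covered by the other list (59.4% and 61.1%). A peak was shared if it had 1 bp or more in common with the other list. At Hand2 23 of 32 AVC peaks were shared (71.9%, 53.3 to 86.3) and 23 of 40 chamber peaks (57.5%, 40.9 to 73.0). At Mef2c the numbers were 18 of 39 (46.2%, 30.1 to 62.8) and 20 of 42 (47.6%, 32.0 to 63.6). At Nkx2-5 11 of 18 AVC peaks were shared (61.1%, 35.7 to 82.7) but 8 of 31 chamber peaks (25.8%, 11.9 to 44.6). Hand1 had 1 shared peak in each list. Over the whole lists 23.2% of AVC and 31.6% of chamber peaks were shared. The intervals lay above these shares at Hand2 and Mef2c in both lists and at Nkx2-5 in the AVC, whereas the interval of the Nkx2-5 chamber peaks included 31.6%. For the Mef2c chamber peaks the margin was small, and other settings removed it. Their interval included the list's share with equal peak numbers (23.57 to 54.36, list 28.5%) and at widths of at least 300 bp (28.67 to 68.05, list 32.9%). With at least 50% of a peak covered, or with split peaks joined, the chamber intervals of both Mef2c and Hand2 included it. At scores of at least 3 the Nkx2-5 share was 2 of 7 AVC peaks (28.6%, 3.67 to 71.0), below the 32.4% of that list. In the chambers 26.1% of the Mef2c peaks were shared (10.2 to 48.4), below the 34.3% of the list but with an interval that included it. The interval of the Nkx2-5 chamber peaks (9.09%, 1.12 to 29.2) lay below that 34.3%. With any AVC peak within 1 kb counted instead, 61.3% of the Nkx2-5 chamber peaks were shared, with an interval (42.2 to 78.1) that included the 47.5% of the list. At scores of at least 3 the interval of the Hand2 AVC peaks (81.8%, 48.2 to 97.7) lay above the share of its list, while that of the Hand2 chamber peaks (38.5%, 20.2 to 59.4) included it. Absence of a peak means that none was called, not that the mark was absent.

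**Figure D2:**
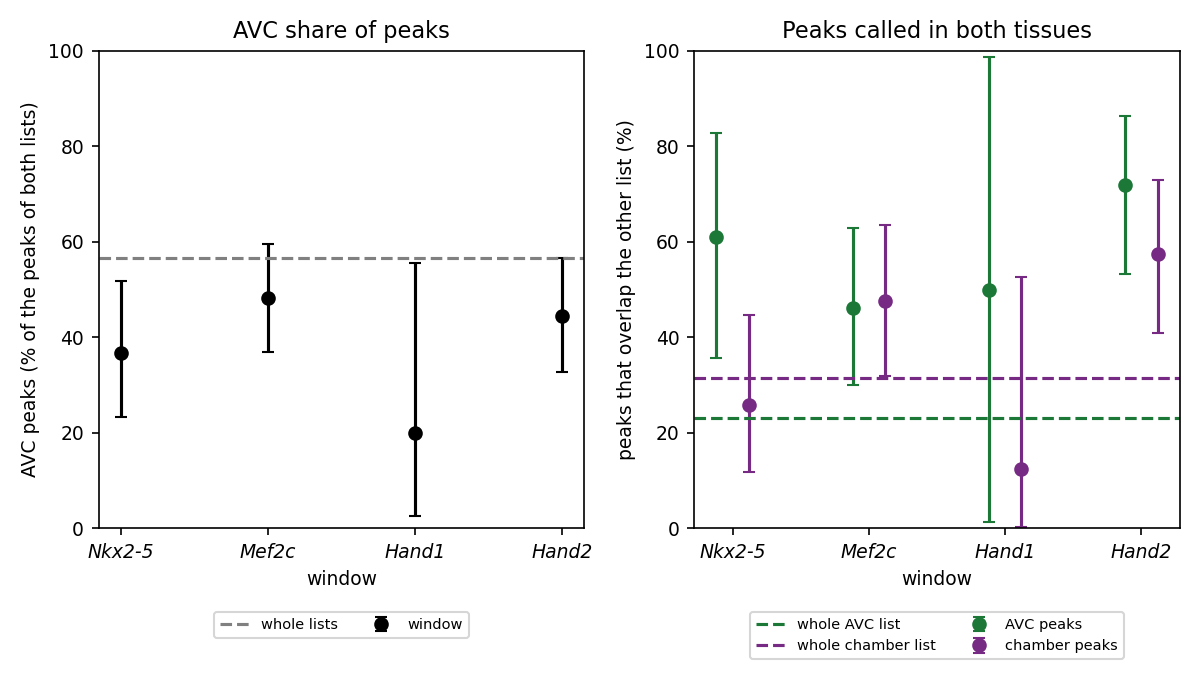
Left, AVC peaks as a percentage of all peaks of each window; right, percentage of AVC (green) and chamber (purple) peaks that overlap the other list, with exact 95% binomial intervals and dashed lines for the whole lists. The AVC share lies below 56.6% in each window, and the overlap runs up to 71.9% of AVC peaks at Hand2.

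The Nkx2-5 window was the one in which the chamber peaks stood highest. Most of its signal lay in a stretch of 19.4 kb, chr17:26974276-26993633, in which peaks of either list followed each other with gaps of at most 2 kb. This stretch held 10 AVC and 15 chamber peaks, which covered 26.4% and 47.7% of it. Its largest chamber peak, chr17:26980379-26982718, was 2340 bp wide and had a signal value of 348 and a score of 26.38. It stood at the 99.3rd percentile of the chamber list by score and at rank 12 on chromosome 17 by signal value. In the AVC this region was called as 3 separate peaks, with signal values of 89, 27 and 27. The first of them, chr17:26980215-26981543, was the highest AVC peak of the window, 1329 bp wide, with a score of 10.94, the 96.7th percentile of its list and rank 110 on the chromosome. The AVC-to-chamber ratio of these highest values was 0.256.

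The next 2 chamber peaks of the Nkx2-5 stretch lay on one side of this peak. At chr17:26976635-26977921 the chamber peak had a signal value of 169 and a score of 22.98, and the AVC peaks below it had values of 62 and 29, with a score of 7.29 for the higher. At chr17:26979121-26980186 an AVC peak of 30 (score 2.64) faced a chamber peak of 97 (score 14.72). The AVC values were thus lower at each of the 3 broadest chamber peaks. On the other side the strong chamber peaks mostly had no overlapping AVC peak. The highest of these was chr17:26987749-26988296, with a value of 63, a score of 8.70 and the nearest AVC peak 969 bp away. In all, 7 of the 11 Nkx2-5 chamber peaks with a score of 5 or more overlapped no AVC peak, 3 of them outside the stretch, at chr17:27002061-27002666, chr17:27021563-27022258 and chr17:27023408-27023935. These 3 lay 72, 3028 and 1351 bp from the nearest AVC peak, and those inside the stretch 147 to 969 bp. Most of the 7 thus had an AVC peak within 1 kb. Over the whole chamber list 70.8% of the peaks this strong were shared. None of the 7 AVC peaks without a chamber overlap scored 5 or more; the highest, chr17:26914899-26915540, had a value of 42 and a score of 4.22.

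**Figure D3:**
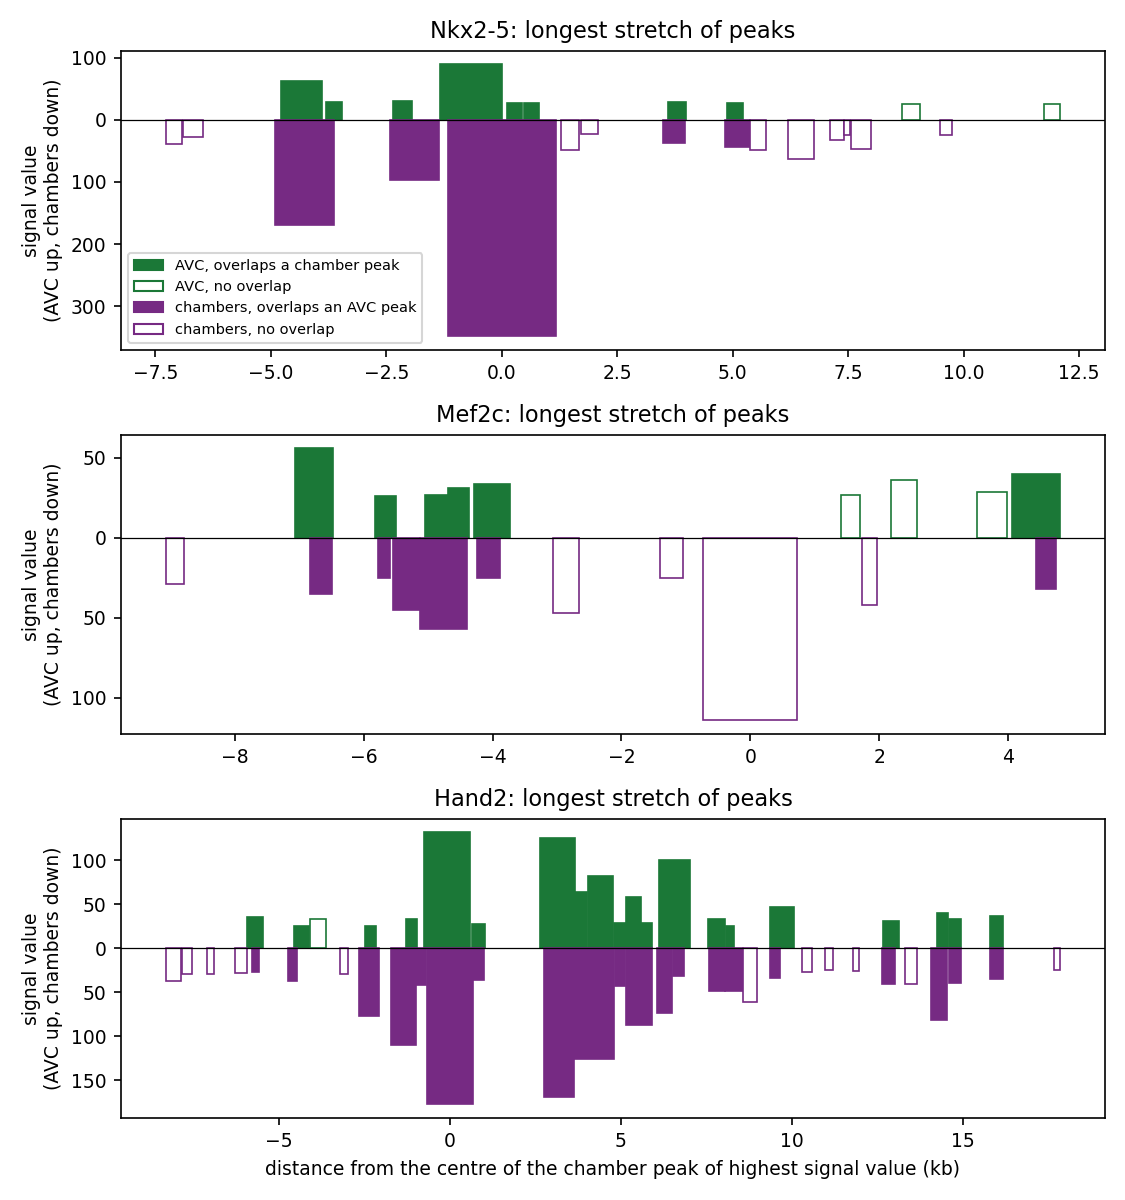
Signal values along the longest run of peaks at Nkx2-5, Mef2c and Hand2, against the distance in kb from the centre of the chamber peak of highest signal value; AVC up, chambers down, filled where a peak overlaps the other list and open where it does not. The highest chamber peak is 348 at Nkx2-5, 114 without AVC overlap at Mef2c, and 177 facing an AVC peak of 132 at Hand2.

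Mef2c peaks were spread over the window in several shorter stretches that the tissues filled to different degrees. The longest, chr13:83702049-83715924, ran over 13.9 kb with 9 AVC and 11 chamber peaks. It held the strongest chamber peak of the window, chr13:83710388-83711848, 1461 bp wide with a signal value of 114 and a score of 16.41, the 97.1st percentile of its list. No AVC peak overlapped it, and the nearest was 675 bp away. Elsewhere in the stretch overlapping peaks differed in both directions. At chr13:83704047-83704636 the AVC had a value of 56 and a score of 5.83 over a chamber peak of 35 and a score of 3.61. At chr13:83705999-83706714 the chamber peak had a value of 57 and a score of 7.23, against AVC values of 27 and 31. At chr13:83705574-83705994 a chamber peak of 45 (score 5.2) faced an AVC peak of 26. The chamber peak chr13:83708062-83708465, with a value of 47 and a score of 5.53, overlapped no AVC peak.

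A second Mef2c stretch, chr13:83662240-83670990, held the strongest AVC peaks of the window. The AVC peak at chr13:83663880-83664795 had a signal value of 75 and a score of 8.78, the 95.8th percentile of the AVC list, and the chamber peak under it had a value of 37 and a score of 3.93, a ratio of 2.03. Directly before it, at chr13:83662949-83663712, the AVC peak had a value of 60 and overlapped chamber peaks of 76 and 24. The order of the tissues therefore changed within about 1 kb. At the far end of the same stretch the chamber peaks at chr13:83668638-83669074 (value 55) and chr13:83670410-83670990 (value 71, score 9.68) overlapped no AVC peak, the second lying 3332 bp from the nearest one. The strongest unshared AVC peak, chr13:83698918-83699591, had a value of 50 and a score of 5 and began 27 bp from a chamber peak. A further stretch of 5.50 kb, chr13:83742105-83747601, held 5 AVC and 7 chamber peaks, with highest values of 35 and 69 at overlapping peaks. Of the strong chamber peaks of the window 7 were shared and 5 were not, against 70.8% shared over the whole chamber list; of the strong AVC peaks 3 were shared and 1 was not, against 75.4% shared over the whole AVC list.

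The Hand1 window held 2 AVC and 8 chamber peaks, all but 1 with scores under 5. Its single strong peak was the chamber peak chr11:57646683-57647109, with a signal value of 51 and a score of 6.22, the 87.1st percentile of the chamber list. It overlapped the AVC peak chr11:57646499-57646950, with a value of 27 and a score of 2.03, at the 3.68th percentile of the AVC list and close to the calling threshold. The other AVC peak, chr11:57625105-57625610, had a value of 33 and a score of 2.70 and lay 4834 bp from the nearest chamber peak. The 7 other chamber peaks had values of at most 29, and none had an AVC peak within 1 kb. With 2 AVC peaks, the shares at Hand1 have intervals too wide to set them apart from the other windows.

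At Hand2 nearly all AVC peaks of the acetylated stretch overlapped a chamber peak, but a smaller part of its chamber peaks overlapped an AVC peak. The limits of the stretch were set from the peaks of both lists together, so they do not show a like extent in both tissues. The stretch ran over 26.1 kb, chr8:59790259-59816393, and held 21 AVC and 31 chamber peaks, of which 20 in each list were shared. It began with chamber peaks that overlapped no AVC peak. Peaks covered 41.0% of it in the AVC and 52.1% in the chambers. The same pair of regions was highest in both tissues. The AVC peak chr8:59797818-59799139 had a signal value of 132 and a score of 15.94, and the chamber peak chr8:59797878-59799231 a value of 177 and a score of 21.26. The AVC peak chr8:59801198-59802210 had a value of 125 and a score of 15.11, and the chamber peak chr8:59801312-59802184 a value of 169 and a score of 21.08. The AVC-to-chamber ratios were 0.746 and 0.740. In percentiles of their own lists by score these peaks stood at 97.8 and 97.7 in the AVC and at 98.3 and 98.3 in the chambers.

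Away from these summits the Hand2 values diverged in both directions. At chr8:59804668-59805584 the AVC peak had a signal value of 101 and a score of 12.64, above both overlapping chamber peaks, which had 73 and 31. At chr8:59796837-59797560 an AVC peak of 34 faced a chamber peak of 110, and at chr8:59795906-59796488 an AVC peak of 26 faced a chamber peak of 77. A further gap of this kind lay beyond the stretch, at chr8:59818849-59819811, where the AVC value was 28 and the chamber value 101, a ratio of 0.277. All 6 strong AVC peaks of the window were shared, as were 12 of its 13 strong chamber peaks. Over the whole lists 75.4% of such AVC peaks and 70.8% of such chamber peaks were shared. The exception, chr8:59807140-59807536, had a value of 61 and an AVC peak 286 bp away. The strongest unshared AVC peak lay far from the stretch, at chr8:59879550-59880034, with a value of 46, a score of 4.57 and the nearest chamber peak 44448 bp away.

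Over all overlapping pairs, signal values were mostly lower in the AVC at Nkx2-5 and Hand2. At Mef2c the pairs differed in both directions around a median ratio near 1, with quartiles of 0.667 and 1.36. The series as a whole had 22319 such pairs with a median AVC-to-chamber ratio of 1.11, and the chamber value was the higher in 39.4% of them. At Nkx2-5 the median was 0.367 over 11 pairs (range 0.0776 to 1.48), with the chamber value higher in 10. At Hand2 it was 0.708 over 29 pairs (0.158 to 3.26), with the chamber value higher in 22. At Mef2c it was 1.03 over 21 pairs (0.474 to 2.50), with the chamber value higher in 10. The single Hand1 pair had a ratio of 0.529. The chamber value was at least 2-fold higher in 6 Nkx2-5, 8 Hand2 and 1 Mef2c pairs, against 7.85% of all pairs. The AVC value was at least 2-fold higher in 2 Hand2 and 2 Mef2c pairs and in no Nkx2-5 pair, against 8.02%. Pairs are not independent: the 6 Nkx2-5 pairs all came from the chamber peaks with values of 348, 169 and 97. Some of the 8 Hand2 pairs barely touched, such as AVC 28 with chamber 177 over 26 bp and AVC 29 with chamber 87 over 8 bp.

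**Figure D4:**
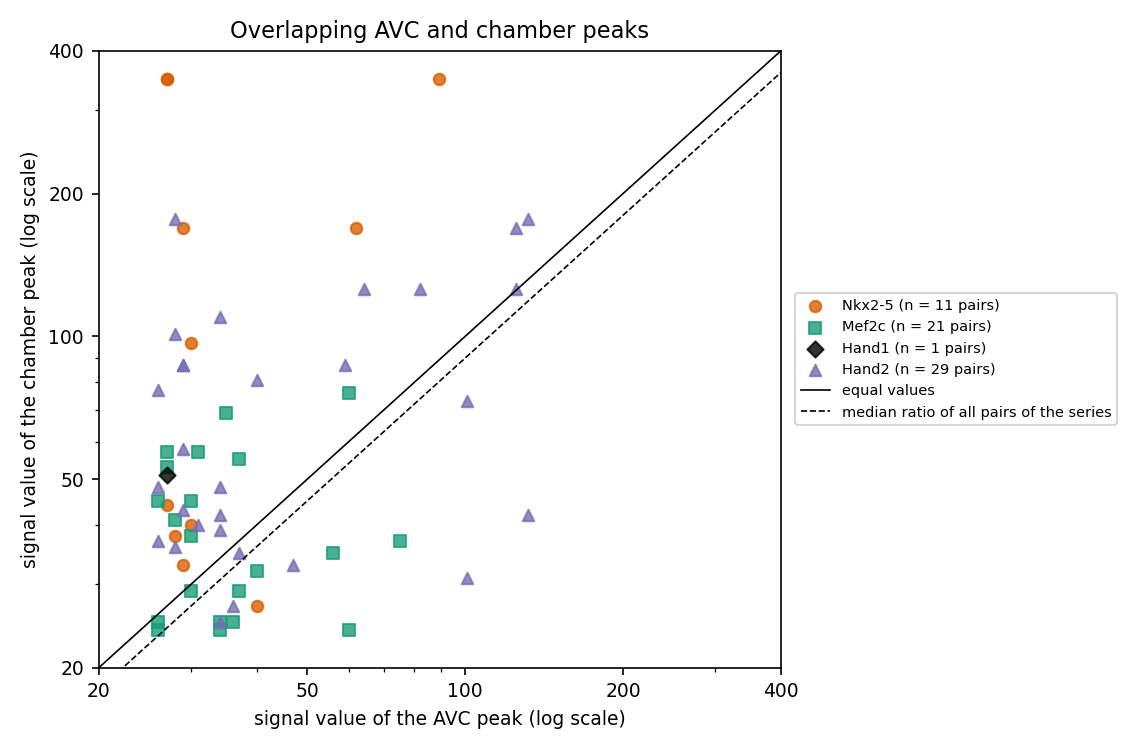
Signal value of each overlapping chamber peak against that of its AVC peak, both on log scales, for the 62 pairs of the 4 windows; the solid line marks equal values and the dashed line the median ratio of all pairs of the series, 1.11. Of the 11 Nkx2-5 pairs 10 lie above the line of equal values, and the 21 Mef2c pairs lie on both sides of it.

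A broad peak of one list can enter several pairs, and a split region then counts its weaker parts against the whole. Setting each chamber peak against its highest overlapping AVC value gave a median ratio of 0.675 over 8 Nkx2-5 peaks, 0.746 over 23 Hand2 peaks and 1.04 over 20 Mef2c peaks, against 1.13 over 21226 chamber peaks of the series. The median at Nkx2-5 was thus nearer to 1 by a factor of more than 1.5, with the chamber value higher at 7 of 8 peaks. Setting each AVC peak against its highest overlapping chamber value gave 0.367, 0.678 and 0.789 for the same genes, against 1.08 over 20324 AVC peaks. With this choice the Mef2c median fell on the chamber side. Where a peak has several partners, taking the highest can only raise the ratio of a chamber peak and lower that of an AVC peak. The direction of these shifts is thus partly set by the choice. The series' own median also depended on width, and among pairs of peaks at least 300 bp wide it was 0.958, with the chamber value higher in 52.8% and at least 2-fold higher in 11.0%, and the AVC value at least 2-fold higher in 5.26%. In that class the medians were 0.338 at Nkx2-5, 0.693 at Hand2 and 0.736 at Mef2c, over 10, 24 and 14 pairs; the chamber value was at least 2-fold higher in 6, 8 and 1 of them and the AVC value in 0, 2 and 1.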

How the data were processed

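H3K27ac ChIP-seq peaks of sorted cells were analysed as deposited, 1 list per tissue. Per the file headers, OccuPeak 1.3 called the peaks of each library. Its windows were chromosomes, its Log(ER) threshold 2, its read length 50, and its fragment length was modelled as 60.5 for the AVC and 68 for the chambers. Bowtie, SAMtools and mm9 are named in the submitters' processing notes. The authors deposited a score, the Log(ER), and a signal, a whole number that the headers do not name. A control library and the depth are not stated in the sources used here.

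Positions were made 1-based. Overlap counts were tested on pieces cut from AVC peaks or placed in the gaps after them, and against bedtools 2.31.1. Intervals are exact Clopper-Pearson 95%. A stretch joins peaks across gaps of up to 2 kb, a limit set after seeing the data. Named peaks are those with a score of 5 or more in either list, the 3 highest scores per list and the highest unshared peak, with the peaks overlapping them; for other peaks counts and ranges are given. Genes, windows and lists were chosen with earlier results of these data known. The tools were Python 3.11.15 with scipy 1.17.1, pandas 2.3.3 and numpy 2.4.6, and matplotlib 3.10.9 for figures.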

Additional observations from a re-analysis of the deposited data

How the results depend on the processing

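The AVC share of peaks lay below that of the whole lists in each of the 4 windows under the 6 alternatives run for it. No paired analysis was possible because each tissue has 1 sample. At scores of at least 3, which leave fewer peaks, the AVC share was 36.1% at Mef2c, 29.7% at Hand2 and 0% at Hand1 (1 chamber peak left), against 50.2% over both lists. There the shared percentage was 28.6% of 7 AVC and 9.09% of 22 chamber peaks at Nkx2-5, and 26.1%, 38.5% and 0% of chamber peaks at Mef2c, Hand2 and Hand1, against 32.4% of AVC and 34.3% of chamber peaks over the whole lists. The shares at Nkx2-5 in both lists and at Mef2c and Hand1 in the chambers were then below those of the lists. Of these, only the interval of the Nkx2-5 chamber peaks (1.12 to 29.2) lay below the list's share. The others included it, with 3.67 to 71.0 for the Nkx2-5 AVC peaks, 10.2 to 48.4 at Mef2c and 0 to 97.5 at Hand1. With equal peak numbers the weak Hand1 AVC peak was lost, leaving 0% shared in both lists. With a neighbour within 1 kb, 61.3%, 71.4% and 77.5% of chamber peaks were shared at Nkx2-5, Mef2c and Hand2, against 47.5% of the list. Ranked by signal value, the strongest AVC peaks of Mef2c and Hand1 stood at percentiles 95.98 and 63.1, and the strongest chamber peaks of Nkx2-5, Mef2c, Hand1 and Hand2 at 99.6, 97.2, 87.7 and 98.6. The joining of split peaks, the 300 bp pairs and the highest-partner pairings were chosen after seeing the data. Without the depth or an input, a region not called in a tissue says little about its level there.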

Other observations

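Beyond the windows, more peaks followed at Nkx2-5 than at the other genes. The windows of Nkx2-5 and Hand1 are 150 kb wide, against 350 kb at Mef2c and 250 kb at Hand2. The flanks therefore start at unlike distances from the window centres. In the 50 kb after the Nkx2-5 window there were 5 AVC and 10 chamber peaks, with highest signal values of 32 and 60. None in the AVC and 4 in the chambers had a score of 5 or more, against 9.95% and 18.1% of the whole lists. In the 50 kb before it there were 5 and 4 peaks, none this strong. The 50 kb on either side of the Mef2c, Hand1 and Hand2 windows held at most 3 AVC peaks and at most 1 chamber peak each, and the 50 kb before the Mef2c and Hand1 windows held none.

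The Hand2 stretch contained a gap of 1601 bp, chr8:59799597-59801197, with no peak in either list between its 2 highest regions, AVC values 132 and 125 and chamber values 177 and 169. Where this gap lies relative to the gene was not analysed here.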
